A study of Mus musculus with 8 samples.

Results

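Immediate early genes are transcribed within minutes of a stimulus, before any new protein is needed. Signals such as growth factor receptor activation, calcium entry or wounding reach them through ERK and other kinases, which act on serum response factor with its ETS partners and on CREB, factors already bound at the promoters. Many of the products are transcription factors that switch on a second wave of genes, and many of the messages are short-lived. In stratified epithelia such as the tongue surface they are known to answer growth factors, stretch, injury and tissue handling. The 10 genes described here lie outside the AP-1 family. They are the cytoskeletal regulator Arc, the zinc finger factors Egr1, Egr2 and Egr3, the orphan nuclear receptor Nr4a1, the immediate early response genes Ier2, Ier3 and Ier5, the growth regulator Myc and the antiproliferative factor Btg2.

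The members were taken by symbol and all 10 of them were found among the 15540 genes of the authors' deposited table. They were not chosen by a threshold, but the list was drawn up with the log2 fold changes and adjusted p-values of this same comparison known, so those values stand here as a description and support nothing further. The data are RNA sequencing of tongue epithelium from C57BL/6 mice. The KrTB+DOX group had 4 libraries of mice that carry K14-rtTA and TRE-FLBmi-1 and drank water with doxycycline at 2 mg/mL. The KrTB group had 4 libraries of mice with the same pair of transgenes on plain water. The keratin 14 promoter places the doxycycline-dependent activator in basal keratinocytes, and the activator drives Bmi-1, a Polycomb subunit. The sources used here give no age, sex or length of treatment, and without doxycycline-treated mice lacking the transgenes the drug and the Bmi-1 construct cannot be told apart.

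All gene values rest on a comparison that the authors deposited, read from its column names as limma output. It has 1 log2 fold change, mean, t and p-value for each gene. It holds no value per library, so levels in single mice and the depth of each library are unknown. A positive sign was read as higher in KrTB+DOX because the authors' deposited table gives Bmi1 a 42.8-fold difference in that direction (log2 fold change 5.42, SE 0.10). Markers of the labelled epithelium were abundant, with 9 of 9 keratinocyte markers at means of 7.48 to 13.98 log2 CPM (log2 of read counts scaled to library size). Of these, 2 of 9 were higher in KrTB+DOX at an adjusted p under 0.05 in the authors' deposited table, namely Trp63 (log2 fold change 0.78) and Krt15 (0.54), and 0 were lower. Krt14 (0.80) and Krt5 (0.40) had an unadjusted limma p under 0.05 only. Below 0 lay 3 of the 9, which were Krt13 (-0.29), Krt4 (-0.25) and Cdh1 (-0.01), and the median of the 9 was 0.18. Skeletal muscle markers were abundant as well, with 7 of 7 at 10.67 to 13.56 log2 CPM. All 7 had log2 fold changes below 0 (median -0.26), and 0 of them passed by limma, while 3 had an unadjusted p under 0.05. Of the fibroblast markers, 0 of 6 were higher and 4 were lower in KrTB+DOX at an adjusted p under 0.05, with a median log2 fold change of -1.04. Among 5 endothelial and 5 immune markers with a value, Cdh5 (-0.38) and Cd68 (-0.60) were lower and 0 were higher. Of 4 measured taste bud markers, 0 passed by limma, with 0 at an unadjusted p under 0.05. The part of these shifts between cell types in the values below was not tested. In bulk tissue, fewer cells of a type and less RNA per cell cannot be told apart.

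The promoters of these genes are where the upstream kinases act, so the windows that RefSeq gives for the members were searched for the binding motifs of factors known for immediate early transcription. For 5 of the 10 genes, namely Btg2, Egr2, Ier3, Ier5 and Nr4a1, 9 windows were searched. Egr2 had several of the 9, some of them overlapping, and so more chances of a match. No window was found for Arc, Egr3, Ier2 and Myc. Egr1 was left out of the search because of its chromosome, so nothing is said of its promoter. Each window runs from 250 bases before an annotated start to 50 bases after it. The sequences below, on GRCm38.p6 and 5′ to 3′ on the strand of the gene, show Ier3, the member with a window that passed the test in the expression data, Nr4a1 with its repeated CREB core motifs, and the motif-bearing stretches of Btg2 and Egr2. Capitals mark motif matches on either strand.
Ier3, chr17:35821463-35821712, plus strand: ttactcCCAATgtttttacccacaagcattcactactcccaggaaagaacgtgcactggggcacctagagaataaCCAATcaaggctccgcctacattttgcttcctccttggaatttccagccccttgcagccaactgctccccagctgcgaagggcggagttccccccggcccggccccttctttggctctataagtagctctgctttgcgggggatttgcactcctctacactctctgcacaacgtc
Nr4a1, chr15:101266596-101266845, plus strand: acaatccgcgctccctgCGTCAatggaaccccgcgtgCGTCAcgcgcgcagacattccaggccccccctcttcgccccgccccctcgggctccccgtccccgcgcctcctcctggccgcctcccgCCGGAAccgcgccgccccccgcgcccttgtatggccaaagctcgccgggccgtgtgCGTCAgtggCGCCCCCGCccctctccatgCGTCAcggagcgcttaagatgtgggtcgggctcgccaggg
Btg2, chr1:134079306-134079335, minus strand: cttgttcCCAATaaTGACGTCAgtgagcga
Egr2, chr10:67537793-67537822, plus strand: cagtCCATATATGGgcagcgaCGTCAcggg

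The full CREB site TGACGTCA lay 166 bases before the start that the Btg2 window belongs to, and was held by 1.79% of all 32851 windows in the RefSeq table. That Btg2 start lies 35 bases before the gene as GENCODE M21 draws it. The CREB core TGACG, which is part of the full site, was found in Btg2, Egr2 and Nr4a1. It was in 5 of the 9 member windows and in 20.8% of all windows. Nr4a1 held 4 such cores, all read on the opposite strand as CGTCA. The serum response element, a run of A and T between paired C and paired G, was found in Egr2. It was in 4 of the 9 member windows and in 1.63% of all windows. Egr2 held 2 such elements. CCATATATGG, shown above, was in 3 overlapping windows, at 72 to 133 bases before their starts, and CCTTTTTTGG was in a separate window, 72 bases before its start. These 4 starts lie 2091 to 2455 bases into the GENCODE gene. The EGR site GCGGGGGCG lay 60 bases before the start that the Nr4a1 window belongs to and in 2.91% of all windows. That start is an internal one, 12577 bases into the gene as GENCODE M21 draws it. The ETS core CCGGAA occurred in Egr2 and Nr4a1, in 2 of the 9 member windows and in 14.9% of all windows. The E-box CACGTG occurred in an Egr2 window and in 7.15% of all. CCAAT was found in Btg2, Egr2, Ier3 and Ier5, in 6 of the 9 member windows and in 37.4% of all windows. In Ier3 it was the one searched motif with a match. The AP-1 site TGANTCA (7.81% of all windows), the EGR variant GCGTGGGCG (0.612%), the NR4A site AAGGTCA (4.72%) and TATAAA (13.6%) had no match in these 5 genes. A match of letters is a description of the sequence and does not show binding, and the absence of one says only that these letters were not in the window.

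In the authors' deposited table, 3 of the 10 members (Arc, Egr3 and Ier3) were higher in KrTB+DOX at an adjusted p under 0.05 and 0 were lower. Among all 15540 genes, 8.13% passed in either direction, 3.82% being higher and 4.31% lower in KrTB+DOX, and nothing is read from the members' count because the list was drawn up with this contrast known. At an unadjusted limma p under 0.05, Ier2 and Nr4a1 joined Arc, Egr3 and Ier3 to make 5, all higher, as against 25.2% of all genes in either direction. Of all 15540 genes, 1905 were higher and 2018 lower by that rule. The log2 fold changes of the members ran from -0.39 to 2.79 with a median of 0.48, beside a median of -0.01 over all genes. Values above 0 were listed for 9 of the 10, and Egr2 was the exception. The 95% interval included 0 for 5 members, which were Egr1, Egr2, Ier5, Myc and Btg2.

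**Figure D1:**
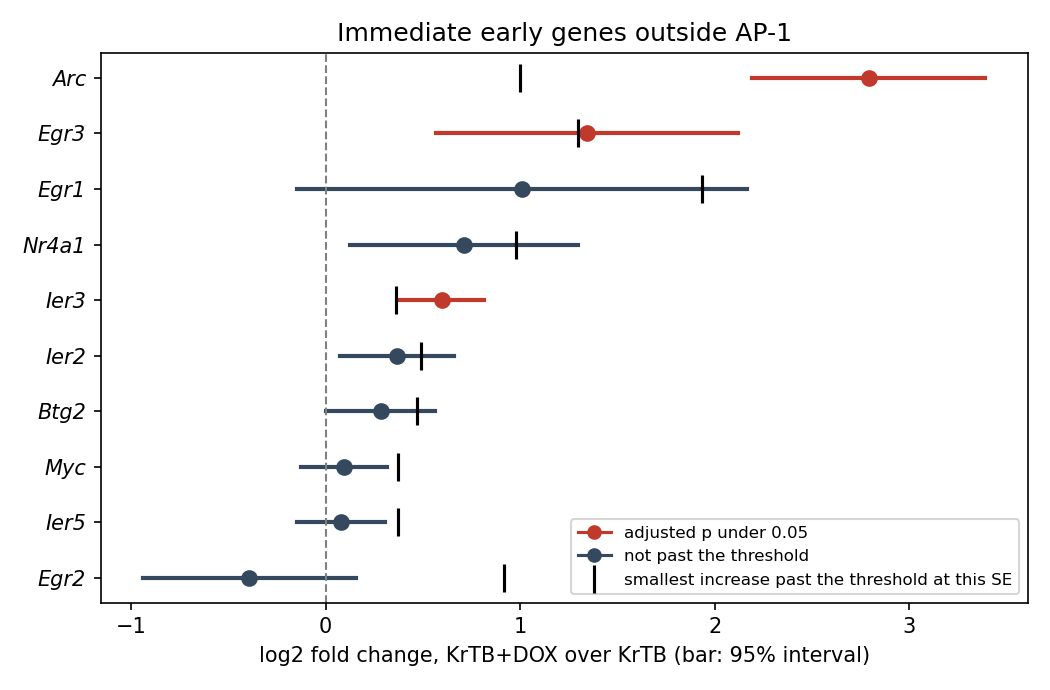
Log2 fold change of each of the 10 genes, KrTB+DOX over KrTB, with its 95% interval from the deposited limma statistics (4 libraries a group). Black ticks mark the smallest increase that would have passed an adjusted p of 0.05 at the SE of the gene: Arc at 2.79 lies far to the right of its tick, Egr3 at 1.35 just to the right, and Egr1 at 1.01 well to the left.

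Arc had the largest increase of the 10. This gene encodes a protein that assembles into virus-like capsids and is best known in neurons, where it regulates glutamate receptor uptake at synapses. The authors' deposited table lists Arc as 6.92-fold higher in KrTB+DOX (log2 fold change 2.79, SE 0.27, 95% interval 2.19 to 3.39, adjusted p = 0.00107). By size of increase it was number 14 of 15540 genes and by p-value number 18. Its mean over both groups was 4.33 log2 CPM. For an unweighted fit of equal groups, which the sources used here do not state, that mean and the fold change correspond to 5.73 log2 CPM in KrTB+DOX and 2.94 log2 CPM in KrTB. Arc is at chr15:74669083-74672570 (minus strand, ENSMUSG00000022602.14), with this and the following positions from GENCODE M21 on GRCm38. Of 7 markers of neurons and Schwann cells, Rbfox3 and Syt1 had no row in the table. The other 5 had log2 fold changes from -0.94 to 0.21 in the authors' deposited table, and 0 of them passed by limma, at an adjusted or at an unadjusted p under 0.05. The synaptic gene Snap25 had a mean of 0.53 log2 CPM and a log2 fold change of -0.94 (SE 0.77). The part of nerve cells in the Arc value was not tested.

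Of the 3 EGR factors, which share a zinc finger domain that binds the same GC-rich site, Egr3 rose and Egr1 and Egr2 did not pass the test. Egr3, known for its role in muscle spindle development and in lymphocytes, is at chr14:70077203-70082614 (plus strand). The authors' deposited table lists it as 2.54-fold higher in KrTB+DOX (log2 fold change 1.35, SE 0.35, 95% interval 0.57 to 2.12, adjusted p = 0.0439). Its mean was low, at 1.30 log2 CPM, and it lay close to the threshold. Egr1, the family member most widely used as a marker of growth factor signalling, is at chr18:34859823-34864984 (plus strand). The authors' deposited table lists Egr1 at 2.01-fold in the same direction (log2 fold change 1.01, SE 0.52, adjusted p = 0.256), with an interval from 0.90-fold to 4.49-fold. Egr2, also called Krox20 and required for myelination by Schwann cells, is at chr10:67535475-67542188 (plus strand) and was the one member below 0. For Egr2 the authors' deposited table gives a log2 fold change of -0.39, or 1.31-fold lower (SE 0.24, 95% interval -0.94 to 0.16, adjusted p = 0.35), at a mean of 1.59 log2 CPM. No test of one EGR gene against another could be made, since that needs values per library.

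Nr4a1, the orphan nuclear receptor also called Nur77, did not pass the threshold. Its log2 fold change in the authors' deposited table was 0.71, or 1.64-fold (SE 0.26, 95% interval 0.13 to 1.30, adjusted p = 0.124), at a mean of 5.82 log2 CPM. The gene is at chr15:101254269-101274795 (plus strand). Of its paralogs in the authors' deposited table, Nr4a3 rose 2.41-fold (log2 fold change 1.27, SE 0.27, adjusted p = 0.0225), while Nr4a2 had 0.17 (adjusted p = 0.709).

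The IER genes share little beyond their induction. Ier3, also called IEX-1, is a short membrane-associated protein that acts on cell survival and NF-kB signalling, and its gene is at chr17:35821684-35822923 (plus strand). Per the authors' deposited table Ier3 rose 1.51-fold with KrTB+DOX over KrTB (log2 fold change 0.60, SE 0.10, 95% interval 0.38 to 0.81, adjusted p = 0.00811). Its log2 fold change was smaller than those listed for Egr1 and Nr4a1, and its SE was the lowest of the 10. Ier2, a nuclear protein, is at chr8:84661331-84662852 (minus strand). The value for Ier2 in the authors' deposited table was 1.29-fold and did not pass (log2 fold change 0.37, SE 0.13, 95% interval 0.07 to 0.66, adjusted p = 0.115). Ier5, which acts on heat shock factor through a protein phosphatase, is at chr1:155096361-155099636 (minus strand). The authors' deposited table lists Ier5 at 1.06-fold (log2 fold change 0.08, SE 0.10, 95% interval -0.14 to 0.30, adjusted p = 0.663).

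The members that bear most directly on proliferation did not pass the test. Myc, the transcription factor that pairs with Max to drive growth and ribosome production, is at chr15:61985391-61990374 (plus strand). Its log2 fold change was 0.10 in the authors' deposited table (SE 0.10, 95% interval -0.13 to 0.32, adjusted p = 0.582). That interval corresponds to 0.92-fold to 1.25-fold. Btg2, a p53-responsive inhibitor of proliferation that recruits the CCR4-NOT deadenylase, is at chr1:134075170-134079120 (minus strand). The authors' deposited table gives Btg2 a log2 fold change of 0.28, or 1.22-fold (SE 0.13, adjusted p = 0.198).

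**Figure D2:**
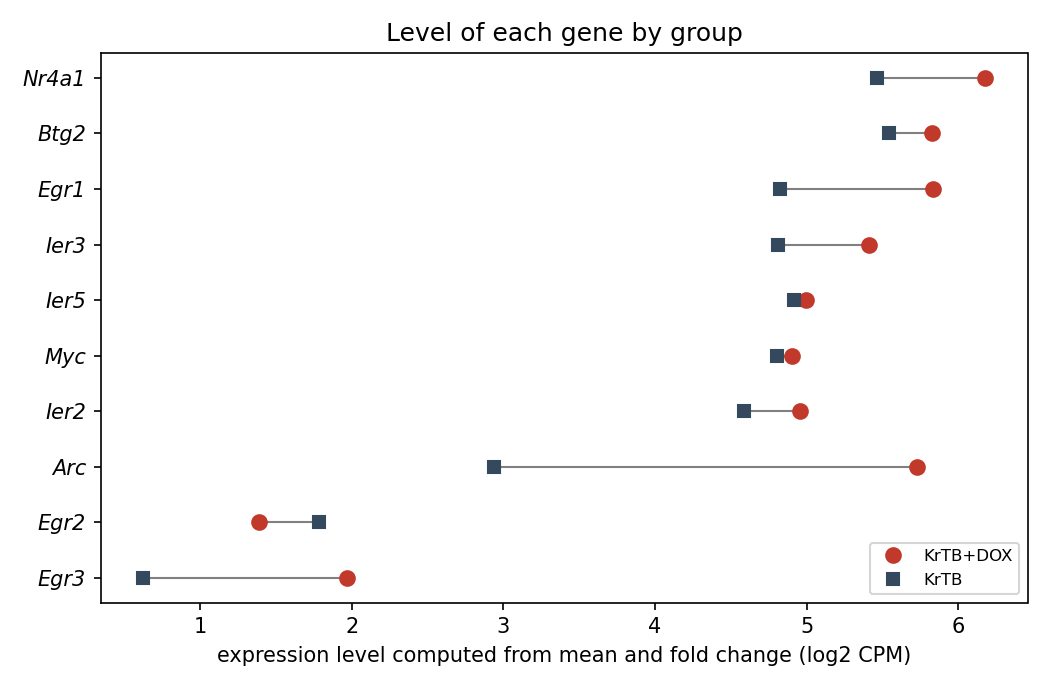
Level of each gene in KrTB+DOX (circles) and KrTB (squares) in log2 CPM, computed as the deposited mean plus or minus 0.5 times the log2 fold change. Arc stands at 5.73 in KrTB+DOX and 2.94 in KrTB, and Egr2 is the one gene whose circle lies to the left of its square. Levels are not scaled by transcript length and hold for an unweighted fit of equal groups.

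Expressed as CPM under the same assumption, Arc came to 53.0 CPM in KrTB+DOX and 7.66 CPM in KrTB. Egr1 came to 57.1 CPM in KrTB+DOX and 28.3 CPM in KrTB, and Egr3 to 3.91 CPM in KrTB+DOX and 1.54 CPM in KrTB. Nr4a1 came to 72.5 CPM in KrTB+DOX and 44.2 CPM in KrTB, and Ier3 to 42.5 CPM in KrTB+DOX and 28.1 CPM in KrTB. Egr2 was the one gene with the lower value in KrTB+DOX, at 2.62 CPM, against 3.44 CPM in KrTB. The remaining 4 differed by at most the 1.29-fold of Ier2, and Myc came to 29.9 CPM in KrTB+DOX and 28.0 CPM in KrTB.

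Levels of different genes were compared per kilobase of the longest coding transcript, as the mean log2 CPM over both groups minus log2 of that length in kilobases. On this scale Ier3 was highest at 4.93, followed by Nr4a1 at 4.47, Btg2 at 4.23, Ier2 at 4.17 and Myc at 3.63. Ier5 stood at 3.24, Egr1 at 3.17 and Arc at 2.72, beside a median of 2.82 over 14073 coding genes. Egr2 at 0.02 and Egr3 at -0.68 were the lowest, and 7 of the 10 lay above the median coding gene. The table gives no error for a level, so whether neighbours in this order differ beyond their spread is not known.

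The fold changes of the members were known with unequal precision, and all 10 had a larger SE than the median gene of their expression level. For each member, its SE was set beside those of the genes within 0.5 log2 CPM of its mean, which were 1184 to 2717 genes. Egr1 had an SE 6.20 times the median of such genes and above 99.7% of them. The SE of Nr4a1 was 3.27 times the median (above 98.6%) and that of Arc 2.77 times (above 97.9%). Egr3 was the fourth member beyond the 90th percentile, at 93.3%. Lower down came Btg2 (86.9%), Ier2 (83.8%), Egr2 (76.8%), Ier5 (66.2%), Ier3 (64.0%) and Myc (63.9%). In limma the SE of a gene reflects the scatter of its libraries within the groups after moderation, and which libraries carried that scatter cannot be seen in a table without them.

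**Figure D3:**
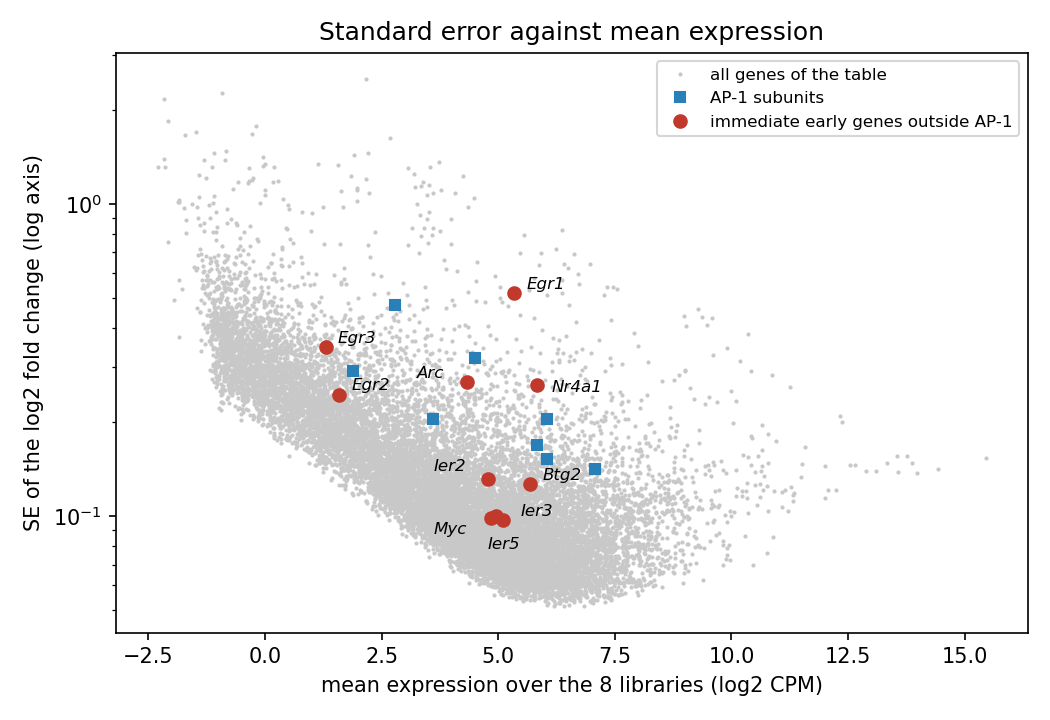
SE of the log2 fold change (log axis) against mean expression in log2 CPM for all 15540 genes (grey), the 10 members (red circles) and the AP-1 subunits (blue squares). Egr1, with an SE of 0.52 at a mean of 5.33, lies far above the bulk of genes at its level, while Myc, Ier5 and Ier3 lie within it at SEs near 0.10.

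At its SE, Egr1 would have needed a change of at least 3.82-fold to pass an adjusted p of 0.05, Egr3 2.46-fold, Arc 2.00-fold, Nr4a1 1.97-fold and Egr2 1.88-fold. For Ier3, Myc and Ier5 a change of 1.29-fold to 1.30-fold would have passed. These folds come from the SE of each gene times 3.73, the smallest absolute t among all genes that passed, and restate its test. For Myc, an increase as large as the 1.51-fold of Ier3 lies outside the 95% interval.

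The AP-1 subunits, the best known immediate early genes, all lay above 0. The authors' deposited table calls 2 of 8 higher (Fosl1 with a log2 fold change of 1.72 and Atf3 with 0.91) and 0 lower, with a median of 0.73. Their SEs were also wide for their level, with 6 of 8 above the 90th percentile. Among these were Fos (SE 0.32) and Fosb (SE 0.47), whose log2 fold changes of 0.87 and 1.18 did not pass.

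Of 41 further immediate early genes on a list of primary response genes, 39 had a value, of which 6 rose, 1 fell and 32 did not pass. Their median log2 fold change in the authors' deposited table was 0.17, and 27 of the 39 lay above 0. The smallest p belonged to Ifrd1, a transcriptional coregulator (log2 fold change 0.55, SE 0.09, adjusted p = 0.00683). Next came Phlda1 (0.57, SE 0.09, adjusted p = 0.00811), and Gadd45a, a DNA damage and stress gene, which fell by 0.51 on the log2 scale (SE 0.08, adjusted p = 0.00823). After these came the small MAF factor Maff (0.78, SE 0.14, adjusted p = 0.0113). The other risers were Nr4a3 and the MAP kinase phosphatases Dusp5 (0.74, adjusted p = 0.033) and Dusp1 (0.42, adjusted p = 0.0465). Several classical members of this group had log2 fold changes near 0 in the authors' deposited table and did not pass, such as Klf6 (-0.06), Btg1 (0.02) and Gadd45g (0.10). Egr4 and Cxcl1 were on the list but had no row in the table.

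**Figure D4:**
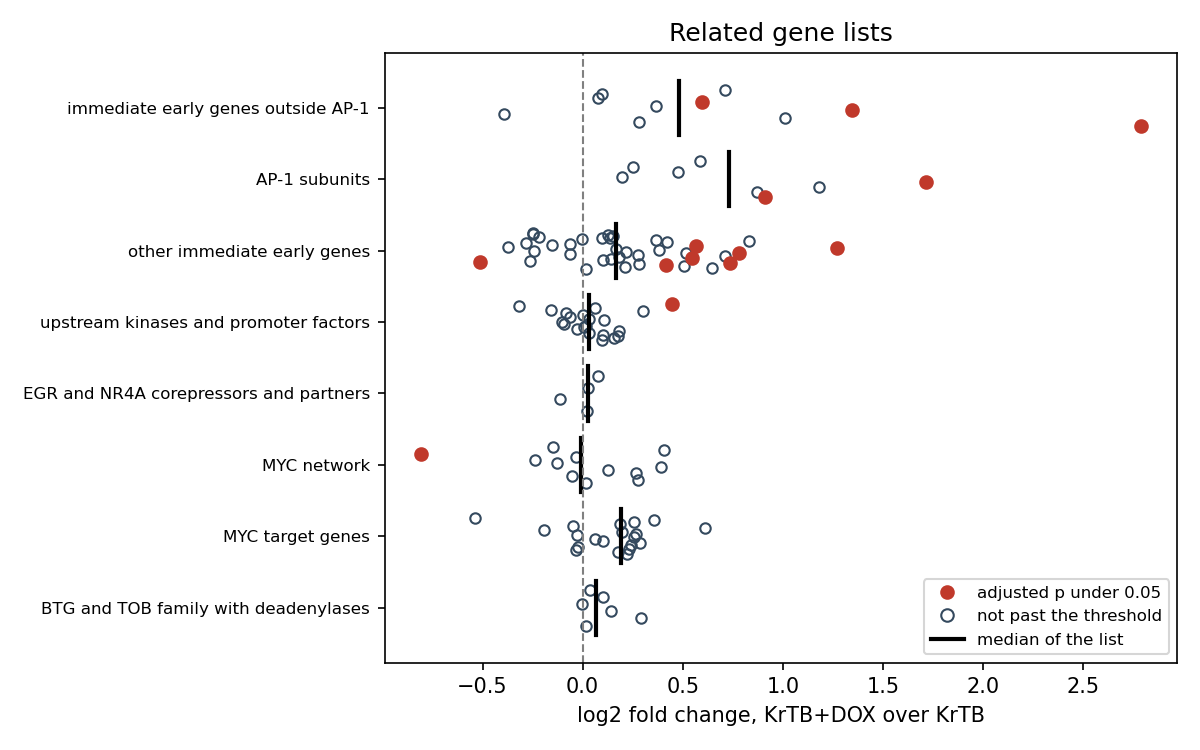
Log2 fold changes, KrTB+DOX over KrTB, of the 10 members and of 7 related gene lists, 1 point a gene, with filled points at an adjusted p under 0.05 and a bar at the median. The members (median 0.48) and the AP-1 subunits (0.73) lie mostly right of 0, whereas kinases and promoter factors (0.03) and the MYC network (-0.01) centre on it.

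Upstream of the members, the messages of 21 kinases and promoter factors had a median log2 fold change of 0.03 in the authors' deposited table, where 1 rose, 0 fell and 20 did not pass. The riser was Srf, which encodes serum response factor and is known as a target of its own pathway (log2 fold change 0.45, SE 0.11, adjusted p = 0.0354). The kinases that follow by p were Rps6ka5 (-0.32, adjusted p = 0.0831) and Rps6ka1 (0.30, adjusted p = 0.134), and then came the CREB coactivator Crtc3 (0.18, adjusted p = 0.136). Kinase activity was not measured. Of the EGR corepressors and the NR4A partners, 0 of 4 passed by limma, at an adjusted or at an unadjusted p under 0.05. The authors' deposited table gives log2 fold changes of 0.08 for Rxrb, 0.03 for Rxra, 0.02 for Nab1 and -0.11 for Nab2.

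For the genes around Myc and Btg2, counts of calls stand beside the 8.13% of all genes that passed in either direction. In the MYC network 0 of 12 rose and 1 fell, with a median log2 fold change of -0.01 in the authors' deposited table. The one that fell was the paralog Mycl (log2 fold change -0.81, SE 0.19, adjusted p = 0.0348). The MYC antagonists Mxd1 (0.39, adjusted p = 0.0698) and Mxd4 (-0.24, adjusted p = 0.0773) and the glucose-sensing factor Mlxip (0.27, adjusted p = 0.158) did not pass. Of 20 genes known as MYC targets, 0 passed by limma. At an unadjusted limma p under 0.05 there were 11, of which 10 were higher and 1 lower, as against 25.2% of all genes in either direction. Of all 15540 genes, 1905 were higher and 2018 lower by that rule. Nothing is read from the count of MYC targets, because the list was chosen with earlier results known. Above 0 lay 14 of the 20, and their median in the authors' deposited table was 0.19. The closest to the threshold was the ribosome biogenesis factor Rrp12 (log2 fold change 0.26, SE 0.07, adjusted p = 0.0525). It was followed by the transferrin receptor Tfrc (-0.54, adjusted p = 0.0602), ornithine decarboxylase Odc1 (0.61, adjusted p = 0.063) and spermidine synthase Srm (0.35, adjusted p = 0.0869). Of 6 measured BTG and TOB genes and deadenylases, 0 passed by limma and 1 had an unadjusted p under 0.05. This was the deadenylase Cnot7 (log2 fold change 0.14, adjusted p = 0.144), followed by Tob1 (0.10), Btg3 (0.29) and Tob2 (0.03).

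As a class the members are compact genes, a property that does not depend on the fold changes. In GENCODE M21 on GRCm38 they had a median of 1 intron, beside 8 in the 14073 coding genes of the table, and 9 of 10 had at most 2 introns, as did 14.1% of coding genes. Ier2 and Ier5 have a single exon in their longest coding transcript, and Nr4a1 has the most introns, with 7. The genes span 1240 bases for Ier3 to 20527 bases for Nr4a1, with a median of 4468 beside 24507 for coding genes. Their transcripts were close to ordinary in length, with a median of 2854 bases beside 3153. In this annotation 0 of the 10 have an exon overlapped by an exon of another gene.

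Many immediate early messages carry AU-rich elements, which shorten their life through the pentamer ATTTA in the 3′ untranslated region. The pentamer was present in 8 of 10 members and in 68.6% of coding genes. Ier3 had 5 copies in 613 bases, or 8.16 per kilobase, Nr4a1 5.52 per kilobase and Myc 4.52 per kilobase, beside a median of 1.27 over coding genes. Egr3 had the most copies, 7, in a longer region of 2645 bases. Arc and Ier2 had 0 copies. The median of the 10 members was 2.39 per kilobase, with 7 above the coding median and 3 below it. Of the members that rose, Arc lacked the pentamer, Egr3 had 2.65 per kilobase and Ier3 was the densest in it of the 10.

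The calls of the members depended on how strict the rule was. At an adjusted p under 0.01, which 1.95% of all genes reached, Arc and Ier3 passed. Tested against a change of 1.2-fold in place of no change, 1.43% of genes passed and Arc was the only member among them. The same held for a Bonferroni adjustment, with 0.219% of all genes. At an adjusted p under 0.10 (15.1% of genes) no further member joined Arc, Egr3 and Ier3, whose own passing there follows from the main threshold. These genes also passed once genes averaging under 1 log2 CPM were dropped (9.06%). The same held with the median of all genes subtracted (8.26%) and with a trend on GC content and length removed (7.79%).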

How the data were processed

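RNA from tongue epithelium was made into stranded poly(A) libraries and read as 51 bp pairs, per the labels' protocols. HTSeq 0.11.2, STAR 2.5.2b, cutadapt, bcl2fastq 2.20 and the build GRCm38 appear, without roles, in the submitters' processing notes. The sources used here do not say how multiply mapped reads were counted. Labels gave 4 libraries to each group, and no pairing or batch. The series' design text calls them biological replicates.

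Per the file headers, the authors deposited limma statistics: a log2 fold change, a mean expression, t and B scores, a p-value and its adjusted form. The headers give the mean no unit. It was read as log2 CPM because 2 to the power of the mean, summed over all genes, came to 985251. The adjusted form was recomputed from the p-values as Benjamini-Hochberg. B was not used. No count, normalized value or depth per library was analysed here. From these, SE was computed as fold change over t, and intervals from 9.76 degrees of freedom implied by t and p. Levels by group were taken as the mean plus or minus 0.5 times the fold change. Calls used limma's deposited adjusted p under 0.05 over all 15540 genes. The Benjamini-Hochberg adjustment, the degrees of freedom and the test against a 1.2-fold change were tried on simulated statistics. The other steps were not.

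GENCODE M21 gave position, exons and the longest basic coding transcript. It matched 15085 symbols directly and 300 through a RefSeq synonym. RefSeq (GRCm38.p6) gave promoter windows. The members, the 7 related lists, the 7 marker lists and the rule for naming genes (all members, and up to 4 genes of smallest p per list) were chosen with earlier results of these data known. Other genes are named where a count of calls needed them or, like Nr4a2, Snap25, Fos, Fosb, Klf6, Btg1 and Gadd45g, were picked after their values were seen. Computation used Python 3.11.15, numpy 2.4.6, scipy 1.17.1 and pandas 2.3.3.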

Additional observations from a re-analysis of the deposited data

How the results depend on the processing

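The number of members past the threshold was 3 and became 1 when tested against a 1.2-fold change and 1 with a Bonferroni adjustment. Against a 1.2-fold change Arc was left (limma statistics, adjusted p = 0.00165), while Egr3 (log2 fold change 1.35, adjusted p = 0.177) and Ier3 (0.60, adjusted p = 0.122) no longer passed. Only the subtraction of the median of all genes (-0.006) and the removal of the GC and length trend altered the fold changes. No member turned direction in either. The median was smaller in size than the fold change of every member, so subtracting it could turn none. With the GC and length trend removed, the median of the members was 0.47 in place of 0.48. Motif counts did not move when the search was kept to the 250 bases before the start. No replicate could be left out and no batch or outlying library could be looked for, because the deposited table has no values per library. No paired analysis was possible because the table carries no libraries and the labels pair none. Levels by group assume a fit without weights or covariates, and low means, as of Egr2 and Egr3, make fold changes depend on how counts near 0 were treated.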
